A study of Mus musculus with 8 samples.

Results

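Ribosome biogenesis and RNA polymerase I genes were examined in CD4+ CD8+ (double-positive) cells of the thymus, which are immature T cells, from mice labelled c-Myb sufficient or c-Myb deficient. The 44 genes were chosen by symbol, and each was read from 1 probe set, the brightest on average over the arrays. Of these, 43 were among the 9951 genes tested, and Npm3 was not analysed here. The 8 arrays, 1 per mouse aged 4 to 5 weeks, held biotin-labelled RNA from 4 sufficient and 4 deficient mice. Every mouse carried Cd4-Cre, a Cre recombinase under the control of the Cd4 gene and therefore active from about the double-positive stage, and every mouse was Tcra-/-, which stops thymocytes before positive selection. Cells were enriched with anti-CD4 magnetic columns, which do not separate double-positive from other CD4-bearing cells. The genotype field and the titles call the groups sufficient (control) and deficient (mutant). The source names give Mybf/f to the controls and Mybf/w to the mutants, the reverse of what those labels would imply. Every direction below is therefore that of the arrays as labelled, deficient minus sufficient.

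Ribosomes are made in the nucleolus. RNA polymerase I transcribes a long precursor rRNA, small nucleolar ribonucleoproteins (snoRNPs) methylate and pseudouridylate it, and a chain of assembly factors cuts and folds it into the 40S and 60S subunits. Growing and dividing cells raise this pathway, and the transcription factor Myc is its best known activator, through E-box sites (CACGTG) near the start sites of many of these genes. Double-positive thymocytes are mostly small resting cells that arise from rapidly dividing precursors.

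Promoter windows are shown for 4 members: those with the 3 largest differences among the 6 that hold the E-box, and the member with the largest difference of all. These were chosen after their values were seen. RefSeq windows of GRCm38.p6, 250 bases before to 50 after the annotated start, were found for 36 of the 44 members. Tsr1 had the E-box and rose, Wdr43 and Utp20 had it and did not pass the test, and Rrp1b had the largest difference and no E-box in the window shown, 1 of its 2 annotated starts. The windows are chr11:74897830-74898129 on the plus strand for Tsr1, chr17:71615965-71616264 (plus) for Wdr43, chr10:88826765-88827064 (minus) for Utp20 and chr17:32035912-32036211 (plus) for Rrp1b. Each is printed from 5′ to 3′ along the gene, and capitals mark the E-box.
Tsr1: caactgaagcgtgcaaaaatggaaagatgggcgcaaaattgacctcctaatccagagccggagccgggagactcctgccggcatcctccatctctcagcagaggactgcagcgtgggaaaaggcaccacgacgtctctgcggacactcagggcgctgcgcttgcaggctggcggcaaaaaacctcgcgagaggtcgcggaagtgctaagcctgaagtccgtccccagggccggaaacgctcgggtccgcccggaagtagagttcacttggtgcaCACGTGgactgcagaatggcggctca
Wdr43: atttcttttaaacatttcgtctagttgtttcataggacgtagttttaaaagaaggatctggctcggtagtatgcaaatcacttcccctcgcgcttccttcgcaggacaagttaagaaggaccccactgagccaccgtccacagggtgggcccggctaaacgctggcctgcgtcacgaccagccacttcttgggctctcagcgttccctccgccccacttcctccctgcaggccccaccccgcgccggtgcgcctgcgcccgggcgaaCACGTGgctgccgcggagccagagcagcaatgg
Utp20: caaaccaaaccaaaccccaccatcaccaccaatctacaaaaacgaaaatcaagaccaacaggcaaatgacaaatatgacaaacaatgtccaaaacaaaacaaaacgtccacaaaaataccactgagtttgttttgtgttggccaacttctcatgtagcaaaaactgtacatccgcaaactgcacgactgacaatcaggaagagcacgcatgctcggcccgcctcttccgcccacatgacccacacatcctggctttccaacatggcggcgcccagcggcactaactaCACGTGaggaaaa
Rrp1b: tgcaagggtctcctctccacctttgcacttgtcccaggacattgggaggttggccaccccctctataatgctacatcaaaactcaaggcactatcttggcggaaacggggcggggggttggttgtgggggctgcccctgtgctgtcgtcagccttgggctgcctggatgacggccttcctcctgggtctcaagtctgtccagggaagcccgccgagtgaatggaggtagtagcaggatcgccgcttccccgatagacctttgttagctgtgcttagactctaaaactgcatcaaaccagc

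The E-box CACGTG, which reads the same on both strands, was present in 6 of the 36 matched members (16.7%), namely Nop2, Ltv1, Utp20, Pes1, Tsr1 and Wdr43. The share was 8.09% of the 27025 genes with a window and 12.2% of the 8155 tested genes with one. The log2 differences of matched members without the E-box ran from -0.46 for Rrp9 to 0.70 for Rrp1b. Those of the 6 members with it ran from 0.16 for Pes1 to 0.44 for Tsr1, and no test compared them. In 5 of these 6 the E-box began after the start site, at base 3 (Pes1), 18 (Wdr43), 25 (Tsr1), 29 (Ltv1) and 38 (Utp20) counted from the start. In Nop2 it began 60 bases before the start. Over all windows 13.9% of E-boxes lay after the start. Cores of Myb sites, searched on both strands, were present in 55.6% of matched members for AACTG and 27.8% for AACGG, against 41.7% and 28.0% of tested genes. The GC box GGGCGG was found in 77.8% against 70.1%, and the Ets core CCGGAAG in 36.1% against 22.6%. A match of letters is a description of the window and does not show that a factor binds there.

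The labelled cell type could be checked on its markers, and the arrays differed in 2 further measures. All 11 measured double-positive thymocyte markers were above the dim limit, the median of the deposited table (33.8 signal units), on at least 1 array. Their summed signal was 67164.3 to 70746.7 on sufficient and 61945.9 to 65802.6 on deficient arrays, so the groups did not overlap, and 4 of them fell (Cd24a, Cd1d1, Rag2 and Dntt). The summed markers of natural killer or gamma-delta T cells were 2017.2 to 2497.6 and 3043.7 to 4189.8, with Ncr1 dim on every array and Gzma the member that rose. Gzma alone made up most of these sums, at 1979.5 to 2400.3 on sufficient and 2961.8 to 4065.8 on deficient arrays. Nkg7 overlapped between groups (difference 0.39, adjusted p = 0.435 in limma), and Klrb1c and Trdc were not matched to a probe set. The summed B cell (362.6 to 619.0 and 506.4 to 699.1), macrophage (339.9 to 596.6 and 377.9 to 559.6), red cell (126.1 to 176.8 and 126.9 to 153.5) and stroma lists (807.3 to 864.9 and 557.7 to 814.7) overlapped between groups. For stroma the overlap was narrow, and 2 of the 3 stroma markers tested were lower at an unadjusted p under 0.05 without passing in limma: Epcam (-0.57, adjusted p = 0.0796) and Pecam1 (-0.36, adjusted p = 0.139), each with all deficient arrays below all sufficient ones. Foxn1, Psmb11, Col1a1 and Pdgfra, of the same list, were dim on every array. The summed granulocyte markers were 60.6 to 110.6 and 101.6 to 233.9, also with overlap, and Elane, Mpo and Camp were dim throughout. Xist, the RNA of the inactive X chromosome, read 4128.7 to 5735.5 on the deficient arrays and 4358.5 on sufficient replicate 1, against 23.4 to 36.7 on the other sufficient arrays. The 18S rRNA control at the 5′ end read 7142.7 on deficient replicate 4 and 676.1 to 1459.4 on the others, while the ratio of the 3′ to the 5′ actin control was 1.178 to 1.314 over the 8 arrays. The part of cell makeup, Xist class and the 18S signal in the results below was not tested, beyond the fit with the Xist class given there. In bulk RNA, a change in the share of a cell type and a change in RNA per cell cannot be told apart.

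The members were for the most part slightly higher on the deficient arrays, and few of them changed by much. Of the 43 members tested, 5 rose: Rrp1b, Tsr1, Rrs1, Wdr12 and Npm1. None fell at an adjusted p under 0.05 in limma (Benjamini-Hochberg over all 9951 genes), nor at an unadjusted p under 0.05, where 15 members were higher. Among all tested genes, 9.97% were called, 5.89% higher and 4.08% lower, and 14.7% were higher at the unadjusted threshold. The 5 members make up 11.6%, a share close to that of all genes called in either direction and about 2 times that called higher. The differences of 39 members were above 0, against 53.4% of all genes, and their median was 0.21 on the log2(signal + 16) scale, against 0.02 for all tested genes. These genes were chosen with earlier results of the same arrays known, so this shift is a description and not an independent test.

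The differences were small in size. They ran from -0.46 (Rrp9) to 0.70 (Rrp1b), with quartiles at 0.11 and 0.30, and 34 of the 43 members differed by less than 1.25-fold. Only Rrp1b and Rrp12 were at least 1.5-fold higher by the fitted difference. All 4 deficient arrays lay above all 4 sufficient arrays for 9 members, where 9.87% of all genes did so, and for 0 members did they all lie below (7.1% of all genes). Besides the 5 that rose, these 9 were Polr1b, Ltv1, Ebna1bp2 and Nop14. Of the 43 members, 42 were above the dim limit on every array.

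**Figure D1:**
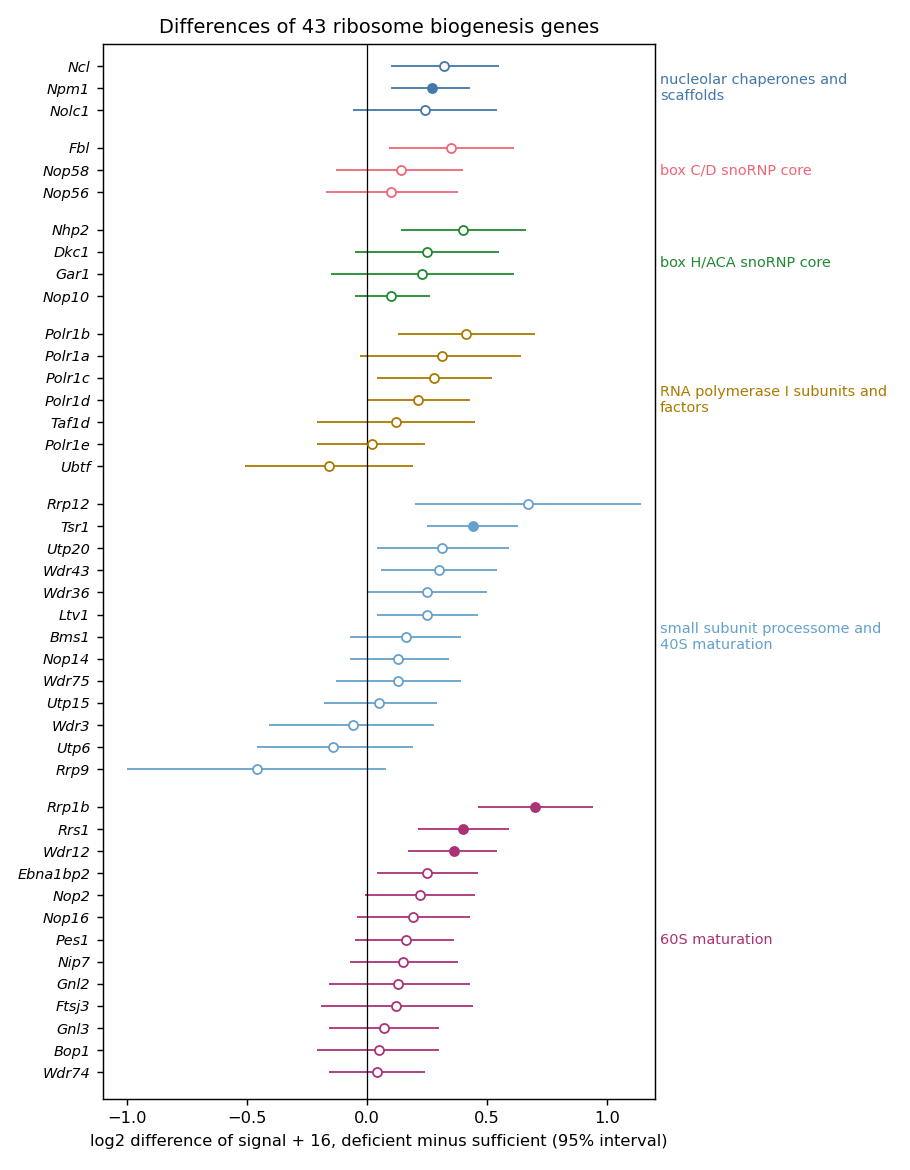
Log2 difference of signal + 16 (x axis, deficient minus sufficient, n = 4 arrays each) with its 95% interval for the 43 tested members, grouped and coloured by role. Filled points are the 5 members at an adjusted p under 0.05, and 39 of the 43 points lie to the right of 0.

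The count of members that rose depended on single arrays and on the model. It was 2 without deficient replicate 1, 3 without deficient replicate 2 and 2 without deficient replicate 3, where 3.24%, 2.85% and 3.17% of all genes were called higher. It was 6 without deficient replicate 4 (6.97% of all genes). It was 3, 4, 4 and 8 without sufficient replicates 1 to 4, where the shares of all genes were 4.33%, 6.01%, 2.86% and 4.52%. With array weights 11 members were called (10.4% of all genes), and with the mean over probe sets 3 (5.29%). With the Xist class in the limma model, which sets the deficient arrays against sufficient replicate 1 alone, 38 members were above 0. They were not all the same ones as before. Taf1d (-0.13), Utp15 (-0.13) and Gnl3 (-0.06) went below 0, and Wdr3 (0.16) and Utp6 (0.14) went above it. The median difference of the 43 members was 0.25, and the median SE went from 0.11 to 0.18. With 1 array on the sufficient side, that fit cannot tell whether the calls hold apart from the Xist class.

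Of the 3 nucleolar chaperones and scaffolds tested, Npm1 rose and Ncl and Nolc1 did not pass. Npm1, which encodes nucleophosmin, an abundant nucleolar histone chaperone, read 7054.0, 6501.5, 7485.7 and 8468.2 on sufficient replicates 1 to 4 and 8842.2, 8710.1, 8934.6 and 8880.0 on the deficient ones. The deficient arrays lay close together and all above the sufficient ones, of which replicate 4 came nearest. The log2 difference was 0.27 ± 0.08 (SE, adjusted p = 0.0492 in limma), and the other Npm1 probe set differed by 0.38. This call was at the edge of the threshold, and it was lost in 7 of the 8 fits that left out 1 array (adjusted p up to 0.115), the exception being the fit without sufficient replicate 4. Ncl, which encodes nucleolin, a protein of rRNA transcription and processing, averaged 5476 ± 912 and 6785 ± 351 (SD, n = 4 each), a difference of 0.32 with a 95% interval of 0.10 to 0.55 and an adjusted p of 0.0743 in limma. Its sufficient replicate 4 read 6781.5, inside the deficient range. The other Ncl probe sets differed by 0.82, 0.39, 0.22 and -0.25. Nolc1, a chaperone of snoRNPs, differed by 0.24 (95% interval -0.06 to 0.54).

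The snoRNP cores had no member past the test. In the box C/D particle, which methylates rRNA, the methyltransferase gene Fbl read 1993.0, 1609.5, 2056.2 and 2483.7 on the sufficient arrays and 2700.2, 2376.1, 2440.5 and 2757.9 on the deficient ones. Sufficient replicate 4 overlapped the deficient arrays, and the difference was 0.35 ± 0.12 (SE, adjusted p = 0.0933 in limma). The scaffold genes Nop58 and Nop56 differed by 0.14 and 0.10, and the second Nop56 probe set by -0.11. In the box H/ACA particle, which makes pseudouridine, Nhp2 came nearest to the threshold. It averaged 1436 ± 223 and 1895 ± 200 (SD, n = 4 each), a difference of 0.40 with an adjusted p of 0.0548 in limma, and its second probe set differed by 0.35. The pseudouridine synthase gene Dkc1 differed by 0.25 and Gar1 by 0.23. Nop10, the smallest protein of the particle, read 4974.8, 4410.4, 4762.2 and 5124.9 on sufficient and 5469.8, 5154.5, 4755.0 and 5329.0 on deficient arrays. These groups overlapped through deficient replicate 3, and the difference was 0.10 with a 95% interval of -0.05 to 0.26. The second Nop10 probe set differed by -0.08. At an unadjusted p under 0.05 each particle had 1 member higher, Fbl and Nhp2.

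None of the 7 RNA polymerase I genes passed the test, and 2, Polr1b and Polr1c, were higher at an unadjusted p under 0.05. Polr1b, which encodes the second largest catalytic subunit, read 162.9, 126.8, 133.5 and 157.8 on sufficient and 233.5, 202.2, 188.4 and 172.5 on deficient arrays. The groups did not overlap, and the difference was 0.41 ± 0.13 (SE, adjusted p = 0.0693 in limma). It passed without deficient replicate 4, the lowest of its group (0.48, adjusted p = 0.0442). Polr1a, the largest catalytic subunit, differed by 0.31 and Polr1c by 0.28. Polr1d, which like Polr1c is shared with RNA polymerase III, read 2545.8, 3207.4, 3386.8 and 3301.2 on sufficient and 3504.6, 3276.0, 3784.4 and 3790.9 on deficient arrays. Sufficient replicate 1 was the low array, deficient replicate 2 lay among the other sufficient arrays, and the difference was 0.21 (adjusted p = 0.205 in limma). Polr1e was close to equal on the probe set used, at 238 ± 14.5 and 242 ± 18.9 (SD, n = 4 each), with an interval of -0.21 to 0.24. Its second probe set differed by -0.17. Ubtf, the HMG box factor that opens the rRNA gene promoter, differed by -0.16 (-0.51 to 0.19), and by -0.21 on its second probe set. Taf1d, a subunit of the promoter selectivity factor, differed by 0.12, and the remaining 6 Taf1d probe sets ranged from -0.28 to 0.34.

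Genes of the small subunit processome and of 40S maturation varied most. Tsr1, a GTPase-like factor of late pre-40S particles, was the 1 of 13 that rose. It read 465.8, 426.4, 427.5 and 489.4 on sufficient and 631.3, 592.9, 618.0 and 634.0 on deficient arrays. The gap between the groups was wider than the spread within either, and the difference was 0.44 ± 0.09 (SE, adjusted p = 0.00953 in limma), with 0.25 on its second probe set. Its call held in each of the 8 fits that left out 1 array. Rrp12, an export and processing factor of pre-40S particles, had the larger difference but did not pass. It read 30.3, 35.5, 43.9 and 76.1 on sufficient and 73.6, 78.0, 78.6 and 90.0 on deficient arrays, close to the dim limit in the first group. Sufficient replicate 4 lay inside the deficient range, and the difference was 0.67 ± 0.21 (adjusted p = 0.0746), or 0.87 without that array (adjusted p = 0.0154).

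Other processome members were spread on both sides of 0. The U3 snoRNP gene Rrp9 had the largest difference downward, at 187.2, 225.7, 178.2 and 217.0 on sufficient and 71.1, 153.8, 202.8 and 174.8 on deficient arrays. Deficient replicate 1 was far lower than the rest, the groups overlapped, and the difference was -0.46 ± 0.24 (SE, adjusted p = 0.276 in limma) and -0.18 without that array. Wdr3 and Utp6 differed by -0.06 and -0.14, and all 3 Utp6 probe sets were below 0. Utp20, Wdr43, Ltv1 and Wdr36 differed by 0.25 to 0.31, of which the first 3 had a 95% interval above 0. The GTPase gene Bms1 read 2876.6, 3644.7, 3479.8 and 3055.5 on sufficient and 3307.0, 3411.9, 3576.4 and 4302.9 on deficient arrays, which overlapped widely (0.16, interval -0.07 to 0.39). Nop14 (0.13), Wdr75 (0.13) and Utp15 (0.05) differed least among those above 0.

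Genes of 60S maturation were all above 0 on the probe set used, and 3 of 13 rose. Rrp1b, a nucleolar protein of 60S processing, read 210.8, 190.9, 168.6 and 221.2 on sufficient and 346.5, 318.8, 335.9 and 318.5 on deficient arrays, a 1.62-fold difference. The 2 groups were well apart, at 0.70 ± 0.11 (SE, adjusted p = 0.00266 in limma), and its other probe sets differed by 0.42 and 0.41. The call held in all 8 fits that left out 1 array. Rrs1, which brings the 5S particle into the large subunit, read 547.5, 547.8, 561.3 and 553.2 on sufficient and 789.5, 659.8, 732.6 and 766.4 on deficient arrays. The sufficient arrays were nearly equal and all below the deficient ones, with a difference of 0.40 ± 0.09 (adjusted p = 0.0145), and 0.27 on its second probe set. This call was lost without deficient replicate 1 (adjusted p = 0.0529 in limma) and without deficient replicate 3 (0.134). Each such fit chose the brightest probe set anew, and the difference of 0.31 fitted without deficient replicate 3 came from the second Rrs1 probe set. On the probe set printed here, the call without that array was therefore not tested.

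The PeBoW complex, formed by Pes1, Bop1 and Wdr12, is needed to process the rRNA of the large subunit, and its members differed unequally in size. Wdr12 read 1608.3, 1654.3, 1757.2 and 1429.8 on sufficient and 2107.7, 2196.1, 2034.0 and 1922.5 on deficient arrays. The groups did not overlap, replicate 4 was the lowest in each, and the difference was 0.36 ± 0.08 (SE, adjusted p = 0.0227 in limma). That call was lost without deficient replicate 1, 2 or 3 and without sufficient replicate 1 or 4 (adjusted p up to 0.083). Pes1 differed by 0.16 (95% interval -0.05 to 0.36) and Bop1 by 0.05 (-0.21 to 0.30), and whether the 3 genes differ from one another was not tested. Among the other 8 members, Ebna1bp2 came nearest, at 846 ± 81.6 and 1009 ± 68.2 (SD, n = 4 each; difference 0.25, adjusted p = 0.124 in limma), with no overlap of the groups. The methyltransferase gene Nop2 (0.22), Nop16 (0.19), Nip7 (0.15), the GTPase gene Gnl2 (0.13) and Ftsj3 (0.12) followed. Further probe sets differed by -0.13 for Nip7 and by -0.10 and 0.06 for Gnl2, while those of the other 60S members were above 0. The nucleostemin gene Gnl3 (0.07) and Wdr74 (0.04) were nearest to 0.

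**Figure D2:**
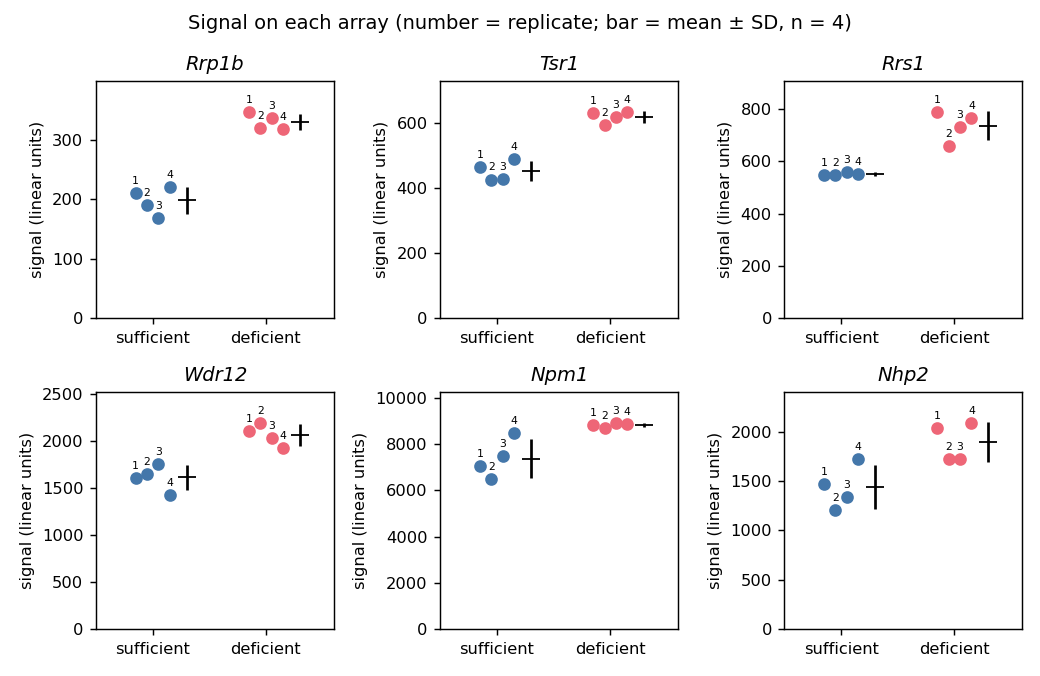
Deposited linear signal (y axis, from 0) of the 5 members that rose and of Nhp2, the nearest below the threshold, on the 4 sufficient (blue) and 4 deficient (red) arrays, numbered by replicate, with mean ± SD. The groups do not overlap for Rrp1b, Tsr1, Rrs1, Wdr12 and Npm1, while sufficient replicate 4 reaches the deficient range for Nhp2.

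Different probe sets of a member mostly pointed the same way. Of the 87 member probe sets past the filter, 71 were above 0, with a median of 0.16, and 5 were called higher and 0 lower, where 6.97% of all 19115 probe sets were called, 3.67% higher. The 5 were 1 each of Npm1, Rrp1b, Rrs1, Tsr1 and Wdr12, for Npm1 the dimmer of its 2. Among the 28 members with more than 1 probe set, all were above 0 for 19, all below for Ubtf and Utp6, and mixed for 7. The suffix of a probe set can mark possible cross-hybridisation, and 10 members, Tsr1 and Rrs1 among them, were read from such a probe set (7 ending in _s_at and 3 in _x_at). Without these probe sets 41 members remained, of which Rrp1b and Wdr12 were called. There Rrs1 differed by 0.27 (adjusted p = 0.13 in limma), Npm1 by 0.27 (adjusted p = 0.0519), and Tsr1 had no probe set without such a suffix. In that fit 5.74% of all genes were called higher.

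Individual mice also differed within a group, and the members moved with them. The median deviation of the 43 members from their own 8-array means was -0.16, -0.22, -0.11 and 0.08 on sufficient replicates 1 to 4, and 0.13, 0.04, 0.07 and 0.19 on the deficient ones. Sufficient replicate 4 thus lay within the deficient range, and the other 3 sufficient arrays below it. That mouse had the highest sufficient signal for 24 of the 43 members, and sufficient replicate 2 the lowest for 24. Among deficient arrays replicate 4 was the highest for 23 members and replicate 2 the lowest for 19. The 29 cell division genes tested spread further within groups, with medians of 0.03, -0.30, 0.06 and 0.30 on sufficient and 0.20, -0.08, -0.38 and 0.19 on deficient arrays. Of these, 0 passed in limma and 0 had an unadjusted p under 0.05, where 2492 of all 9951 genes did in either direction. The median difference of the cell division genes was -0.05. Pcna, a replication clamp gene and the brightest of them, differed by -0.01 (95% interval -0.16 to 0.15).

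**Figure D3:**
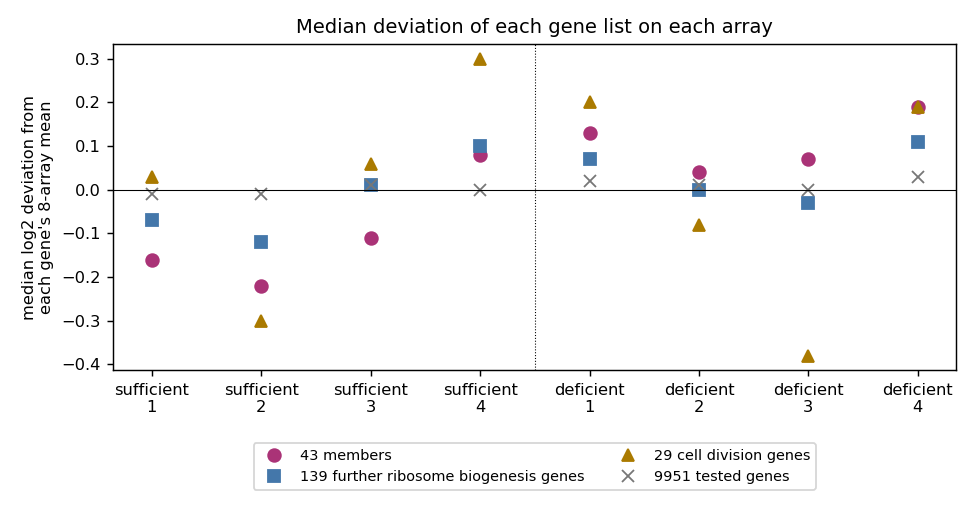
Median log2 deviation from each gene's 8-array mean (y axis) on each array (x axis) for the 43 members, 139 further ribosome biogenesis genes, 29 cell division genes and all 9951 tested genes. The members lie below 0 on 3 of 4 sufficient arrays and above 0 on all deficient arrays, and sufficient replicate 4 lies among the deficient ones.

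Ribosome biogenesis genes outside the members were nearer to the background. Over 4 lists, 139 of 147 such genes were tested, 5 rose and 2 fell (3.6% higher, against 5.89% of all genes), 86 were above 0, and the median difference was 0.05. Of 15 further RNA polymerase I genes, Mybbp1a rose, a nucleolar protein named for binding Myb, from 837 ± 75.3 to 1075.2 ± 29.9 (SD, n = 4 each; difference 0.36, adjusted p = 0.0257 in limma). The 14 others did not pass, and the list's median was 0.02. Of 46 further processome and 40S genes 2 rose, the RNA acetyltransferase gene Nat10 by 0.37 and Rcl1 by 0.44, with a median of 0.10 and 33 above 0.

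The further list of 60S maturation and export genes also held some genes of other steps, such as the snoRNP assembly genes Naf1, Shq1 and Nufip1, and Tcof1. Of its 56 tested genes 2 rose and 2 fell, with a median of 0.05. Urb2, a nucleolar factor of early 60S particles, went from 482 ± 51.6 to 259 ± 49.2 (SD, n = 4 each), a difference of -0.86 ± 0.14 (SE, adjusted p = 0.00325 in limma) with no overlap. The helicase gene Ddx54 fell by 0.43, Zfp622 rose by 0.37 and Nop53 by 0.24, the last named after its values were seen. None of the 22 exosome and RNase MRP genes passed. At an unadjusted p under 0.05 there were 2, 1 higher and 1 lower, where 2492 of all 9951 genes differed in either direction. The brightest exosome gene, Exosc8, had a 95% interval of -0.34 to 0.34. None of the 10 RNA polymerase III subunits passed either, and Polr3k differed by -0.17. At an unadjusted p under 0.05, 2 of these subunits were higher and 0 lower, where 14.7% of all genes were higher. The limma model with the Xist class has 1 array on the sufficient side, so it cannot tell whether the 7 calls in these lists hold apart from that class. The number of calls in these lists moved with single arrays, as did that of all genes. The 5 rises became 1 without deficient replicate 1, 2 or 3 or sufficient replicate 3. There 2.85% to 3.24% of all genes were called higher. The rises became 2 without sufficient replicate 1 (4.33% of all genes) and 3 without sufficient replicate 2 (6.01%). They became 6 without deficient replicate 4 (6.97%) and 7 without sufficient replicate 4 (4.52%). The 2 falls became 1 without deficient replicate 1, 2 or 3 or sufficient replicate 3 or 4. They became 3 without deficient replicate 4 or sufficient replicate 1. Over all genes 406 fell, and 212 to 509 did so with 1 array left out.

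**Figure D4:**
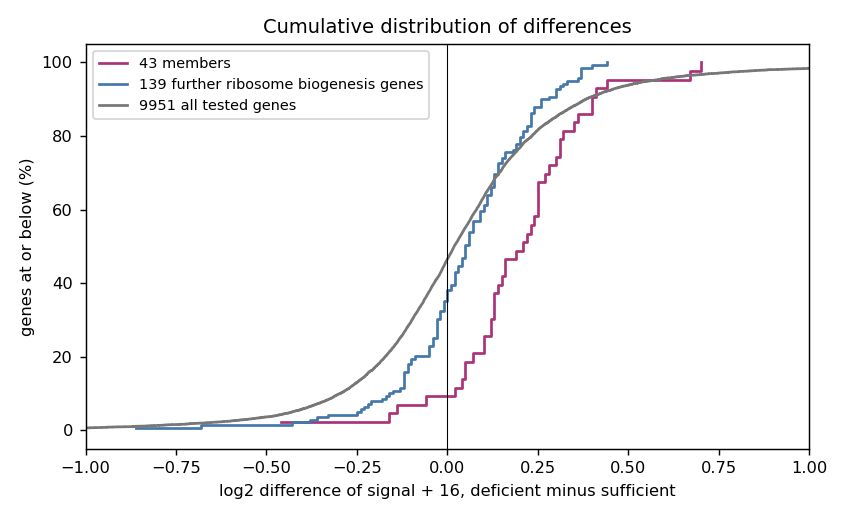
Cumulative share of genes (y axis, percent) at or below each log2 difference (x axis, deficient minus sufficient, shown from -1 to 1) for the 43 members, 139 further ribosome biogenesis genes and 9951 tested genes. The members' curve runs to the right of the others over most of its length, with its median at 0.21 against 0.05 and 0.02.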

How the data were processed

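RNA from 4 sufficient and 4 deficient mice was hybridised to 8 one-colour Affymetrix mouse arrays, 1 mouse each, which the labels call biological replicates. The authors deposited a linear intensity (signal) per probe set, with GCOS named in the submitters' processing notes and a version not given in the sources used here. On every array the 2% trimmed mean was 250.0, so scaling to a common level had been done and differences in total RNA are removed. Array medians were 30 to 37.9, log2 signals correlated at 0.974 to 0.984 within and 0.964 to 0.979 between groups, and the number of arrays limits the precision.

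Signals were used as log2(signal + 16), which understates changes of dim genes. Of 45101 probe sets, 64 controls were left out, 34945 had 1 gene symbol in the platform annotation, 932 several and 9160 none. Probe sets at or above 33.8 on at least 4 arrays were kept, and the probe set with the highest mean stood for its gene. Each fit that left out 1 array made this choice anew, so a gene's probe set can differ between fits. Levels of different probe sets are not compared. limma 3.58.1 in R 4.3.3 (lmFit, eBayes with trend, two-sided) was fitted to all 9951 genes with Benjamini-Hochberg adjustment at 0.05. Tests on simulated data over 9951 genes for this comparison found 16% of 50 genes given a 1.25-fold change, 52% of those given 1.5-fold, 80% for 2-fold and 100% for 4-fold. Only these genes were changed there, 50 at each size, while 992 genes were called in the data. The adjustment is stricter when fewer genes change, so these shares may be too low for the data. Older symbols served for 3 RNA polymerase I genes of the further lists. Python 3.11.15, pandas 2.3.3 and matplotlib 3.10.9 made tables and plots.

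The members and gene lists were chosen with earlier results of these data known. Array values are given for members past the threshold, the brightest of each role and the 3 largest differences not past it; of the further lists, up to 3 called genes or the brightest. Alternatives changed normalization, pseudocount, filter, probe set choice, variance model, weights, threshold, replicate block and Xist class, or left out 1 array.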

Additional observations from a re-analysis of the deposited data

Results flagged for a closer look

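Of 92 groups of 4 arrays examined (43 members and 3 probe sets of the 18S rRNA control), 6 held an array far from the other 3, and chance gives about 1 in 20. Polr1a read 189.3 on deficient replicate 4, against 137.4 to 145.8 on the other deficient arrays. Ubtf read 653.5 on sufficient replicate 2, against 929.1 to 962.1. Nop14 read 220.6 on sufficient replicate 2, against 246.2 to 250.6. Pes1 read 724.0 on sufficient replicate 4, against 583.7 to 603.8. Nop16 read 418.8 on deficient replicate 3, against 453.8 to 458.1. The 5′ probe set of the 18S rRNA control read 7142.7 on deficient replicate 4, against 772.0 to 1459.4, and that array also had the highest member median.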

How the results depend on the processing

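Every fit kept the members' median difference above 0, from 0.15 (mean over probe sets) to 0.25 (Xist class), and from 0.17 to 0.24 with 1 array left out; in each, the median of all genes stayed within 0.029 of 0. The number of members called higher, 5, became 0 with the Xist class, 11 with array weights, 3 with the mean over probe sets, 2 without _s_at and _x_at probe sets, 10 at an adjusted p of 0.1, and 2 to 8 with 1 array left out. Member probe sets called higher, also 5, became 0 with the Xist class, 11 with array weights, 3 without a filter, 3 without a variance trend, 11 at 0.1, and 1 to 9 with 1 array left out. The share of all probe sets called higher was taken in the main fit only (3.67%). Whether these probe set counts follow the general change in calls is therefore not known. In no fit was a member called lower. For the 6 further lists, 5 higher and 2 lower became 0 and 0 (Xist class), 9 and 6 (array weights), 9 and 4 (threshold 0.1), 3 higher without a filter and 1 lower without a trend; with 1 array left out they ran from 1 to 7 and 1 to 3. For all genes, 586 higher and 406 lower became 15 and 11 (Xist class), 1033 and 709 (array weights) and 940 and 636 (threshold 0.1), and ran from 280 to 686 and 212 to 509. The causes were not tested, except that a looser threshold passes more genes by construction. Same-numbered mice did not deviate together (correlations of deviations 0.00334, 0.172, -0.274 and 0.36; 1 of 4 matched its own number best), so the numbers were not taken as a pairing; with the replicate block 8 members were called higher, and 619 of all genes. Of the 5 called members, Rrp1b was called in 18 of 19 alternatives, Tsr1 in 16 of 18, Rrs1 in 15 of 19, Wdr12 in 12 of 19 and Npm1 in 6 of 19. Most differences were under 1.25-fold, a size found for 16% of genes in the simulation, where fewer genes were changed than were called in the data.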
